A study of Mus musculus with 16 samples.

Results

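The neuropeptide genes described here were 10 protein precursors made by cortical neurons (Sst, Npy, Vip, Cck, Tac1, Penk, Pdyn, Crh, Cort and Vgf), chosen by gene symbol from the 47593 genes in the count table. All 10 were listed, and all 10 were among the 16553 genes that passed the filter on low counts. RNA was taken from the cortex of 5xFAD mice, a transgenic model of amyloid plaque deposition in which neurons express human transgenes, mutant APP among them, from the murine Thy-1 promoter. The mice were heterozygous on a hybrid background of C57BL/6 and SJL. There were 4 groups of 4 libraries, for the females and the males on each diet (female or male, vehicle or rapamycin). The rapamycin groups ate a diet with microencapsulated rapamycin, an inhibitor of mTOR, from 2 to 5 months of age, and the vehicle groups ate the diet with the carrier alone. Every group carried the transgenes and no non-transgenic group was analysed here, so each difference below was between diets, sexes or batches within the amyloid model. The sources differ on whether a library was made from 1 mouse or from pooled tissue, so the p-values measure the spread between these libraries only. In tissue RNA, fewer cells of a type and less RNA per cell cannot be told apart.

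Neuropeptides are cut from longer precursors inside dense-core vesicles. Convertases such as PCSK1 and PCSK2 cleave at pairs of basic residues, CPE trims the ends, PAM amidates many of the peptides, and the products act on G protein-coupled receptors. In the cortex several of the precursors mark classes of inhibitory interneurons. Sst marks cells that inhibit pyramidal cell dendrites, Vip marks cells that mainly inhibit other interneurons, and Npy is abundant in neurogliaform cells and in a subset of Sst cells. Cck is made both by basket cells and by many pyramidal cells. Transcription of Npy, Crh, Sst and Vgf is known to respond to neuronal activity.

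The coding sequences of the peptides show how the members relate to each other. Sst encodes somatostatin and Cort encodes cortistatin, and both peptides lie at the end of their precursor. The ends of both coding sequences are shown because the genes are paralogs, with the last 14 codons before the stop in capitals.
Sst (GRCm38 chr16:23889732-23889779, minus strand): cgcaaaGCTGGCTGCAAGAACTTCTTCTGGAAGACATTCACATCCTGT
Cort (GRCm38 chr4:149125267-149125314, minus strand): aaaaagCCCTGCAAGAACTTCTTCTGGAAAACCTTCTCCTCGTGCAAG
Aligned with an offset of 1 codon, 11 of 13 codons specified the same amino acid, 7 were identical, and 31 of 39 bases were the same. Penk and Pdyn both hold repeated enkephalin cores between basic residues. The Penk coding sequence held 6 methionine and 1 leucine cores, and that of Pdyn held 3 leucine cores. The first core of each is shown in capitals.
Penk (GRCm38 chr4:4134328-4134354, minus strand): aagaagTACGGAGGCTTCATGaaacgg
Pdyn (GRCm38 chr2:129688232-129688258, minus strand): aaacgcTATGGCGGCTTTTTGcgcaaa
The Cck octapeptide and the first tachykinin core of Tac1 are each followed by a glycine codon, the signal for amidation. The octapeptide and the core, which is only the end of its peptide, are in capitals. These stretches belong to the gene that passed the diet test and to a gene of the batch comparison.
Cck (GRCm38 chr9:121490098-121490136, minus strand): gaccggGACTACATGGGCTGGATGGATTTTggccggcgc
Tac1 (GRCm38 chr6:7556750-7556773, plus strand): TTCTTTGGATTAATGggcaagcgg
The GENCODE M21 annotation of GRCm38 placed an exon of another gene over the exons of 1 member, an antisense transcript at Penk, which had at most 3 read pairs in any library.

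Promoters were read from a RefSeq table of GRCm38.p6 that covers 250 bases before to 50 bases after each start, and 7 of the 10 members were in it. The cAMP response element was searched as TGACGTCA on both strands, because members that varied together are described below. It was found in 1 of the 7 members, Sst, and in 2.03% of the 27025 genes of the table (1.79% of its 32851 promoters). In the Sst promoter it lay 48 bases upstream of the start and is shown in capitals.
Sst promoter (GRCm38.p6 chr16:23890869-23890908, minus strand): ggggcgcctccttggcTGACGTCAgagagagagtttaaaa
The shorter form TGACG, which the full element also contains, was found in 5 of the 7 members, against 23.0% of all genes in the table. A match describes these letters only.

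Depth was even, with 16393501 to 20593089 read pairs per library. The labels put 11 libraries in batch 1 and 5 in batch 2. The library labelled male rapamycin 4 had Xist at 512 CPM (counts per library size after TMM scaling, used for all levels below) and 0 read pairs on Y-linked genes, which goes against its label, while the other 7 male libraries had Xist at 0.0559 to 1.01 CPM. Leaving it out changed no call on a member for diet. A set of 3 libraries stood apart, namely female rapamycin 1, female rapamycin 2 and male rapamycin 2. Their mitochondrial read pairs were 6.88% to 6.99% of the total, against 2.64% to 5.47% in the other 13. Their exon length slope, the trend of a library's log2 CPM with gene exon length, was -0.127 to -0.121, against -0.0333 to 0.10. Slc17a7, which marks cortical pyramidal cells, averaged 1676 CPM. That level alone does not show which brain regions the tissue held. All 3 libraries that stood apart are rapamycin libraries of batch 1, and no vehicle library had such values. Results that rest on them are therefore given with and without them.

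Levels were compared between genes as RPKM, which divides by exon length. Over all 16 libraries Cck was highest at 430 ± 122 RPKM (SD, n = 16), followed by Sst at 291 ± 86.7. Vgf (125 ± 34.1) and Npy (101 ± 52.5) came next. Vip followed at 30.8 ± 10.4 and Penk at 23.0 ± 10.3. Cort (10.4 ± 3.95), Pdyn (8.64 ± 2.54), Crh (5.36 ± 2.71) and Tac1 (3.20 ± 1.05) were the lowest. Cck exceeded Sst, Sst exceeded Vgf, and Npy exceeded Vip in 16 of 16 libraries. The order was less fixed between other neighbours. Vgf exceeded Npy in 13 libraries, Vip exceeded Penk in 11, Penk exceeded Cort in 13, Cort exceeded Pdyn in 10, Pdyn exceeded Crh in 14 and Crh exceeded Tac1 in 14. Penk varied most between libraries, with a 7.75-fold range, and Vgf least, with a 2.52-fold range.

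**Figure D1:**
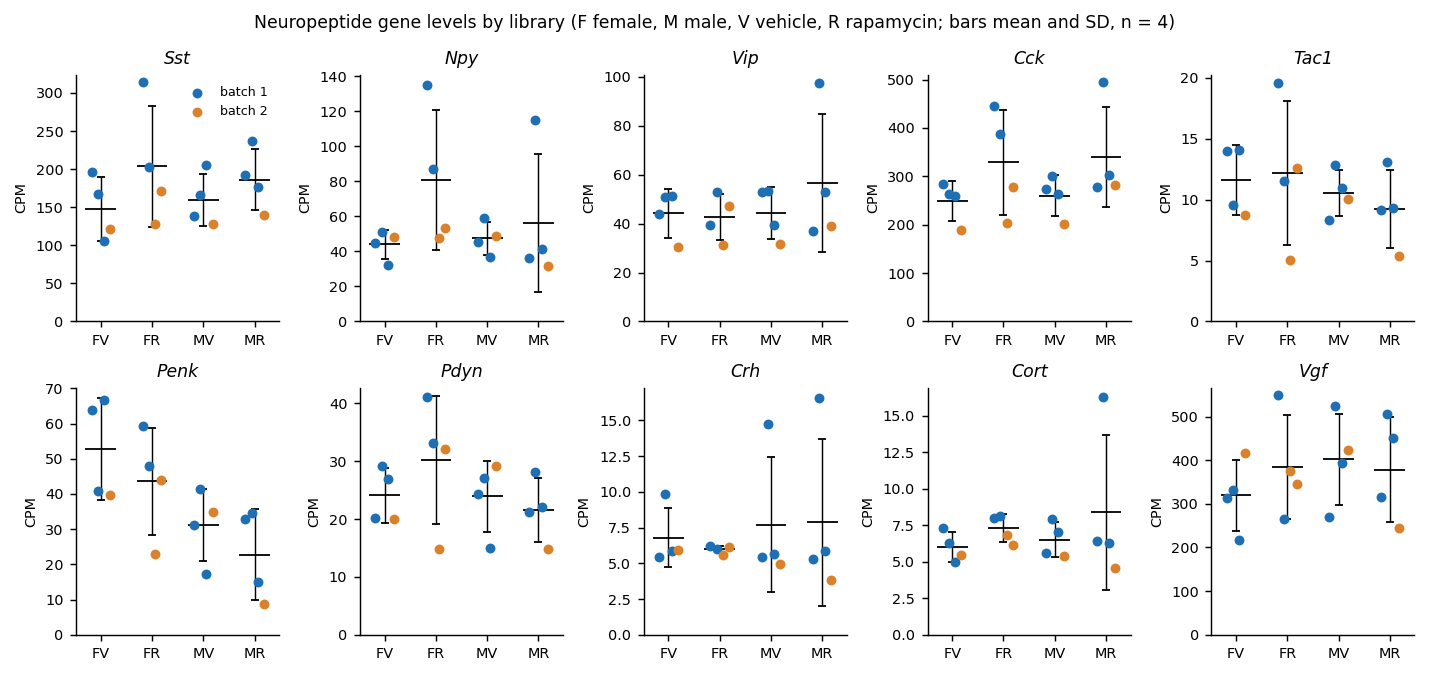
Level of each neuropeptide gene in CPM (vertical axes, from 0) in the 16 libraries by group (FV, FR, MV, MR for female or male, vehicle or rapamycin), with points coloured by batch, lines at the mean and bars for the SD (n = 4). Male rapamycin 2 holds the highest Cck (495), Vip (97.5), Crh (16.5) and Cort (16.2), and the Penk points of females sit higher on average than those of males.

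The main comparison asked whether dietary rapamycin moved these genes in the amyloid model, with both sexes together. Cck rose with rapamycin by 1.37-fold, and it was the only member of 10 to pass an adjusted p under 0.05. Over all genes tested 13.3% passed, with 6.46% higher and 6.86% lower, so the members' share was not above the background. At an unadjusted p under 0.05 there were 3 of 10 members, Cck, Sst and Npy, against 30.4% of all genes. Among members 7 estimates were positive and 3 negative. The median log2 fold change was 0.17, against 0.015 for all genes. With the 3 libraries of high mitochondrial share left out, an alternative chosen after seeing the data, 0 of 10 members and 1 of 17233 genes (0.0058%) passed in edgeR, and the members' median became -0.14.

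Cck (chr9:121489825-121495689, minus strand), the precursor of cholecystokinin, was measured in female vehicle libraries at 284, 263, 259 and 188 CPM and in female rapamycin libraries at 446, 388, 204 and 279 CPM. In males it was 275, 302, 263 and 201 CPM with vehicle and 279, 495, 303 and 282 CPM with rapamycin. The diets overlapped, and 4 of 8 rapamycin libraries lay above the highest vehicle library. The group means were 254 ± 39.5 CPM with vehicle (SD, n = 8) and 334 ± 98.6 CPM with rapamycin (n = 8). The log2 fold change was 0.45 ± 0.11 (SE; edgeR quasi-likelihood adjusted p = 0.0191), with a 95% interval of 0.22 to 0.68. Within batch 2, where none of the 3 libraries lies, the 3 rapamycin libraries held 204 to 282 CPM and the 2 vehicle libraries 188 and 201 CPM. For Sst the diets all but met there, with the lowest rapamycin library at 127.72 CPM and the highest vehicle library at 127.66 CPM. Vgf was lower with rapamycin there, and the other members overlapped. The share of all genes that separate so, at 3 against 2 libraries, was not counted, so these values are not read as a diet result. Without the 3 libraries the log2 fold change was 0.20 ± 0.10 (adjusted p = 0.418). Leaving out female rapamycin 1 alone gave an adjusted p of 0.0530. The mitochondrial share or the exon length slope as a covariate gave log2 fold changes of 0.15 and -0.013, neither of which passed.

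Sst (chr16:23889581-23890844, minus strand), the precursor of somatostatin, stood at 197, 168, 106 and 121 CPM in female vehicle libraries and 314, 203, 128 and 171 CPM in female rapamycin libraries. Male values were 139, 166, 205 and 128 CPM with vehicle and 192, 237, 177 and 139 CPM with rapamycin. The highest value belonged to female rapamycin 1, and the diets overlapped in both sexes. The log2 fold change was 0.39 ± 0.14 (edgeR adjusted p = 0.0675), short of the threshold. DESeq2 put it past the threshold (adjusted p = 0.0365), as it did 18.9% of all genes. Without the 3 libraries it was 0.19 ± 0.15 (adjusted p = 0.603). Cort (chr4:149125034-149126763, minus strand), its paralog, differed by 0.36 ± 0.19 (adjusted p = 0.206), and it ran from 4.58 to 16.2 CPM with the highest value in male rapamycin 2.

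Npy (chr6:49822710-49829507, plus strand), which encodes neuropeptide Y, was 44.8, 51.2, 32.4 and 48.2 CPM in female vehicle libraries and 135, 87.3, 47.6 and 53.1 CPM in female rapamycin libraries. Males had 45.1, 59.0, 36.7 and 49.0 CPM with vehicle and 36.4, 115, 41.6 and 31.9 CPM with rapamycin. The 3 libraries of high mitochondrial share held 87.3 to 135 CPM, and the other 13 held 31.9 to 59.0 CPM, so these sets did not overlap. The log2 fold change over all libraries was 0.54 ± 0.25 (edgeR adjusted p = 0.149), and without the 3 libraries it was -0.17 ± 0.15 (adjusted p = 0.671), the opposite sign. The same 3 libraries also held the 3 highest values of Cck (388 to 495 CPM against 188 to 303) and of Cort (8.01 to 16.2 CPM against 4.58 to 7.96). These are 3 of 10 members, and 8.03% of all genes tested separated in the same way, with the 3 libraries above the other 13. They held 2 of the 3 highest values of Sst, Pdyn and Vgf and 1 of the 3 highest of Vip, Crh, Tac1 and Penk. The part of the mitochondrial share in these differences was not tested beyond the covariate fits.

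**Figure D2:**
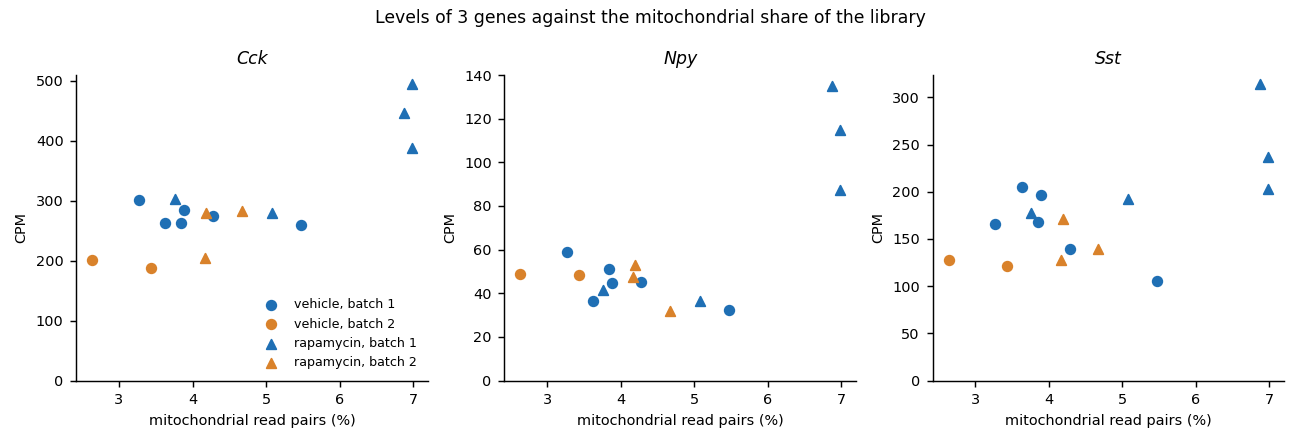
Cck, Npy and Sst in CPM (vertical axes, from 0) against the percent of read pairs on mitochondrial genes, 1 point per library, with shape for diet and colour for batch. The 3 rapamycin libraries near 7% (6.88% to 6.99%) hold the 3 highest Cck and Npy values, and the other 13 libraries lie at or below 303 CPM for Cck and 59.0 CPM for Npy.

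Vip (chr10:5639218-5647614, plus strand), the precursor of vasoactive intestinal peptide, was 44.3 ± 9.46 CPM with vehicle and 49.6 ± 20.8 CPM with rapamycin (SD, n = 8 each). Male rapamycin 2 had 97.5 CPM, and the other 15 libraries did not exceed 53.4 CPM. The log2 fold change was 0.23 ± 0.16 (edgeR adjusted p = 0.354), and 0.043 without that library.

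The opioid precursors did not pass. Penk (chr4:4133531-4138819, minus strand), the precursor of the enkephalins, was 63.8, 40.8, 66.7 and 39.7 CPM in female vehicle, 59.4, 47.9, 23.0 and 43.96 CPM in female rapamycin, 31.2, 41.3, 17.1 and 34.8 CPM in male vehicle and 33.0, 34.5, 14.9 and 8.60 CPM in male rapamycin libraries. Its log2 fold change was -0.35 ± 0.24 (edgeR adjusted p = 0.330), the largest negative estimate of the 10, and it was -0.59 ± 0.28 (adjusted p = 0.396) without the 3 libraries. The lowest value, 8.60 CPM, was in the library labelled male rapamycin 4. Pdyn (chr2:129686565-129699844, minus strand), the precursor of the dynorphins, was 24.0 ± 5.10 CPM with vehicle and 25.9 ± 9.33 CPM with rapamycin, which differed by 0.10 ± 0.19 on the log2 scale (adjusted p = 0.751). Tac1 (chr6:7554879-7565834, plus strand), the precursor of substance P, was 11.1 ± 2.31 CPM with vehicle and 10.7 ± 4.68 CPM with rapamycin, which differed by -0.03 ± 0.19 on the log2 scale (adjusted p = 0.934).

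Crh (chr3:19693401-19695396, minus strand), which encodes corticotropin-releasing hormone, was 5.42, 9.84, 5.88 and 5.95 CPM in female vehicle, 6.17, 5.98, 5.59 and 6.12 CPM in female rapamycin, 5.41, 14.8, 5.65 and 4.92 CPM in male vehicle and 5.26, 16.5, 5.85 and 3.81 CPM in male rapamycin libraries. High values came from 1 library in each of the groups female vehicle, male vehicle and male rapamycin, with 3.81 to 6.17 CPM in the other 13 libraries. Its log2 fold change was -0.013 ± 0.27 (edgeR adjusted p = 0.981), and the 95% interval of -0.57 to 0.55 leaves room for a change in either direction. Vgf (chr5:137026392-137033351, plus strand), a secreted granin-like precursor induced by growth factors, was 361 ± 97.0 CPM with vehicle and 381 ± 111 CPM with rapamycin, which differed by 0.089 ± 0.18 on the log2 scale (adjusted p = 0.783). Within batch 2 the 3 rapamycin libraries held 244 to 375 CPM and the 2 vehicle libraries 416 and 422 CPM. The share of all genes that separate so was not counted, so these values are not read as a diet result.

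**Figure D3:**
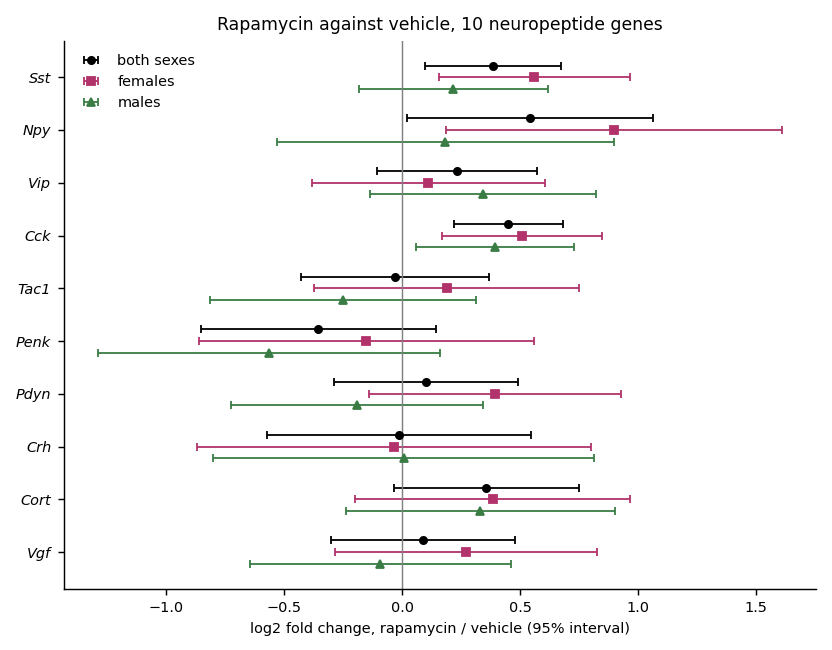
Log2 fold change of rapamycin over vehicle (horizontal axis) for the 10 genes, with 95% intervals, for both sexes (circles), females (squares) and males (triangles). The interval of Cck lies above 0 in all 3 fits (0.22 to 0.68 for both sexes), those of Sst and Npy do so for both sexes and females, and those of the other 7 genes cross 0 in every fit.

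The diets were then compared within each sex, in a fit of the 4 groups with a batch term. In females 0 of 10 members passed in edgeR, where 0.0121% of all genes did. At an unadjusted p under 0.05 there were 3 members against 23.1% of genes, and DESeq2 called 2, Sst and Cck, and 9.08% of all genes. Npy had the largest estimate at 0.90 ± 0.34 (adjusted p = 0.127), then Sst at 0.56 ± 0.19 (adjusted p = 0.103) and Cck at 0.51 ± 0.16 (adjusted p = 0.0869). Without the 3 libraries these became 0.19 ± 0.22, 0.32 ± 0.24 and 0.23 ± 0.17, with female rapamycin then left with its 2 batch 2 libraries. In males 0 of 10 members and 0% of genes passed in edgeR, 1 member against 12% of genes had an unadjusted p under 0.05, and DESeq2 called 0 members. Cck stood at 0.39 ± 0.16 (adjusted p = 0.373) and Penk at -0.56 ± 0.34 (adjusted p = 0.507). Without the library labelled male rapamycin 4 the male estimate of Vgf was 0.11, against -0.093 ± 0.26 with it.

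The difference between the sexes in the diet effect was tested directly as an interaction. In edgeR 0 of 10 members and 0% of genes passed, 0 members and 2.17% of genes had an unadjusted p under 0.05, and DESeq2 called 0 members. The smallest p was for Pdyn, which stood at 0.39 ± 0.25 for females and -0.19 ± 0.25 for males. The difference was 0.59 ± 0.36 with an interval of -0.17 to 1.34 (edgeR adjusted p = 0.999). It was 0.37 to 0.81 with single libraries left out. The male values include the library labelled male rapamycin 4, whose Xist level and lack of Y-linked read pairs go against that label. For Npy the difference was 0.71 ± 0.48 with an interval of -0.29 to 1.72. The 95% interval of this difference included 0 for all 10 members, and it reached beyond 1 log2 unit in 6 of 10 members.

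Female and male vehicle libraries were also compared. In edgeR 0 of 10 members passed, against 0.0121% of genes, 0 members and 3.55% of genes had an unadjusted p under 0.05, and DESeq2 called 0 members. Penk was nearest, with 52.8 ± 14.5 CPM in females and 31.1 ± 10.2 CPM in males (SD, n = 4 each). The log2 difference was 0.71 ± 0.34 (edgeR quasi-likelihood adjusted p = 0.999). The groups overlapped, since the female values of 39.7 and 40.8 CPM lay below the highest male value of 41.3 CPM. The other 9 members differed by -0.33 to 0.11.

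More members passed between the batches than between the diets, and so did more of all genes tested (35.5% against 13.3%). All 10 estimates were lower in batch 2, and 4 members passed in edgeR, Cck (-0.54 ± 0.12, adjusted p = 0.00269), Sst (-0.53 ± 0.15, adjusted p = 0.0125), Vip (-0.55 ± 0.18, adjusted p = 0.0252) and Tac1 (-0.56 ± 0.21, adjusted p = 0.0458). Of all genes 35.5% passed in either direction and 16.5% as lower in batch 2. The members' median was -0.53, against 0.015 for all genes. Vgf moved least, at -0.028 ± 0.20. Without the 3 libraries, which all belong to batch 1, 8 of 10 estimates were lower, and 2 members passed, Vip (-0.47 ± 0.15) and Cck (-0.35 ± 0.11), against 26.6% of genes in either direction. Without the library labelled male rapamycin 4, 2 members passed, and leaving out single libraries gave 2 to 5. Batch was a term of every fit above.

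The receptors of these peptides were followed in a list of 20, of which 17 could be tested. With rapamycin 3 passed, all lower, and 0 were higher, where 13.3% of all genes passed and 6.86% as lower, at a median log2 fold change of -0.042. Sstr4, a somatostatin receptor, averaged 16.4 ± 2.82 CPM (SD, n = 8) in the vehicle and 8.29 ± 4.34 CPM in the rapamycin libraries, or -1.12 ± 0.25 on the log2 scale (SE; edgeR adjusted p = 0.0142). Oprd1, the delta opioid receptor, went from 22.3 ± 4.58 to 14.1 ± 5.96 CPM (log2 fold change -0.74 ± 0.21, adjusted p = 0.0276). Oprm1, the mu opioid receptor, went from 1.83 ± 0.962 to 0.723 ± 0.627 CPM (log2 fold change -1.70 ± 0.45, adjusted p = 0.0240). Without the 3 libraries these were -0.63, -0.42 and -1.02, with adjusted p of 0.120, 0.274 and 0.234. Some receptors that did not pass were named after their values were seen. They were Cckbr (-0.071 ± 0.13), Npy1r (-0.056 ± 0.10), Vipr1 (0.13 ± 0.11) and Crhr1 (-0.042 ± 0.11). In females the 17 receptors had a median of -0.32, with 6 estimates positive and 11 negative. In males the median was -0.0090, with 8 positive and 9 negative. In edgeR 0 receptors passed in either sex. Sstr5, Cckar and Tacr2 were too low to test.

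Of 18 genes for prohormone processing and dense-core vesicles, 3 rose and 4 fell with rapamycin, where 6.46% of all genes rose and 6.86% fell. Pcsk1n, which encodes an inhibitor of PCSK1, rose from 769 ± 166 to 1101 ± 144 CPM (log2 fold change 0.54 ± 0.13, edgeR adjusted p = 0.0160), and Pcsk1 itself fell from 36.9 ± 8.89 to 24.1 ± 10.6 CPM (-0.72 ± 0.22, adjusted p = 0.0391). Cpe, the carboxypeptidase, rose by 0.32 ± 0.093 on the log2 scale (adjusted p = 0.0310), and Scg3, a granin that sorts cargo to the vesicles, rose by 0.24 ± 0.069 (adjusted p = 0.0302). The other genes that fell were Cadps (-0.39 ± 0.084, adjusted p = 0.0139) and Cadps2 (-0.77 ± 0.17, adjusted p = 0.0140), which prime vesicles for release, and Ptprn2 (-0.71 ± 0.19, adjusted p = 0.0254), a vesicle membrane protein. Pcsk2 (-0.099) and Pam (-0.049) did not pass. Without the 3 libraries 0 of these 7 passed. Cpe stood at 0.41 and Cadps2 at -0.79, as large as before, and Pcsk1 moved to -0.27 and Ptprn2 to -0.27.

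Among 11 other cortical precursors, of which 9 could be tested, Pnoc, which encodes nociceptin, rose from 6.96 ± 1.38 to 9.58 ± 2.45 CPM (log2 fold change 0.50 ± 0.14, edgeR adjusted p = 0.0322), and it was 0.26 without the 3 libraries (adjusted p = 0.515). The other 8 did not pass. Markers of the cells and regions that could carry the peptides were read beside these values. Of 14 interneuron genes other than peptides 0 passed, with 4 estimates positive and 10 negative and a median of -0.090, and their summed level was 1066 to 1292 CPM with vehicle and 897 to 1179 CPM with rapamycin. Of 14 activity-induced genes 0 passed, with a median of 0.27 and sums of 801 to 2142 CPM with vehicle and 909 to 2878 CPM with rapamycin. Of 9 striatal, 8 hippocampal and 7 thalamic markers tested 0 passed. Pomc, the only hypothalamic marker of 4 tested to pass, rose by 1.23 ± 0.28 at 1.60 to 3.68 CPM on average. Bcl11b, a glutamatergic marker, was lower (-0.43). All 8 choroid plexus markers had negative estimates, with a median log2 fold change of -1.62, and 3 of them passed. The sum of the 8 was 1965 CPM in male vehicle 4 and at most 332 CPM elsewhere. Pomc, Bcl11b and these 3 choroid plexus markers did not pass without the 3 libraries. Bcl11b was then at -0.25 (edgeR adjusted p = 0.447) and Pomc at 1.44 (adjusted p = 0.123). The 3 choroid plexus markers were at -2.88 to -1.37 (adjusted p = 0.205 to 0.315). No astrocyte, microglial or oligodendrocyte marker passed. The part of these markers in the members' diet differences was not tested.

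The members also varied from library to library within groups. Residual log2 CPM, after the means of group and batch were fitted, was correlated over the 16 libraries for all 45 pairs, with 100000 permutations. Of the pairs 44 had a positive Pearson's r, the median was 0.47, and 15 had a Benjamini-Hochberg adjusted permutation p under 0.05. The points share the fitted terms and each library's depth. Crh and Cort (r = 0.77, Spearman's rho = 0.68, raw permutation p = 0.00035, adjusted p = 0.0115) and Npy and Cck (r = 0.76, rho = 0.71, adjusted permutation p = 0.0115) were highest. The opioid pair Penk and Pdyn had r = 0.70 (rho = 0.66, adjusted permutation p = 0.0256). These relations leaned on few libraries. Without the 2 libraries farthest from the median of the first gene, r was 0.51 for Crh and Cort, 0.54 for Npy and Cck, and 0.57 for Penk and Pdyn. With the 3 libraries of high mitochondrial share left out and the residuals refitted on 13, 2 pairs passed and the median r was 0.27. Those pairs were Cort with Vgf (r = 0.80) and Vip with Cck (r = 0.78), and Npy with Cck fell to 0.12. In batch 1 alone, with 11 libraries, 7 pairs passed. Female rapamycin has 2 libraries in each of these refits, and their residuals mirror each other. The permutations treated all points as exchangeable, so the numbers of pairs that passed in the refits are approximate.

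**Figure D4:**
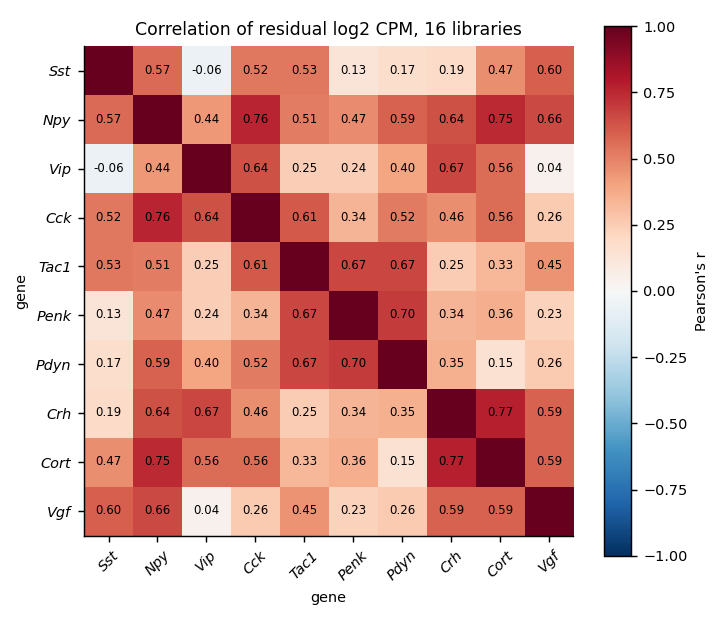
Pearson's r of residual log2 CPM between each pair of the 10 genes over 16 libraries, with genes on both axes and colour from -1 (blue) to 1 (red). The highest values are those of Crh with Cort (0.77) and Npy with Cck (0.76), and the only negative value is that of Sst with Vip (-0.056).

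The residuals were set against 14 marker sums, 140 relations in all, and 4 had an adjusted permutation p under 0.05 over 16 libraries. Crh followed the activity-induced genes, a list of immediate early genes such as Fos and Arc (r = 0.83, Spearman's rho = 0.77, adjusted permutation p = 0.0028). Without male vehicle 2 and male rapamycin 2 the r was 0.76, in batch 1 it was 0.85, and without the 3 libraries it was 0.77. Cort followed the same sum (r = 0.69, rho = 0.69, adjusted permutation p = 0.0490), with r = 0.50 when both male rapamycin 2 and 4 were left out. Cck ran opposite to astrocyte markers (r = -0.84, rho = -0.86, adjusted permutation p = 0.0028), with r = -0.76 without male rapamycin 1 and 2, -0.92 in batch 1 and -0.86 without the 3 libraries. Tac1 followed striatal projection neuron markers (r = 0.82, rho = 0.79, adjusted permutation p = 0.0042), with r = 0.69 without female rapamycin 1 and 4, 0.62 in batch 1 and 0.91 without the 3 libraries. Over the 13 libraries without those 3, 9 relations passed. Among them Vgf (r = 0.92) and Npy (r = 0.86) followed the activity-induced genes, against r of 0.67 and 0.44 over 16, and Penk went against oligodendrocyte markers (r = -0.83, against -0.42 over 16). In batch 1 alone 10 relations passed. These refits have the same mirrored residuals of female rapamycin, so both numbers are approximate. The part of any of these cell or tissue markers in the members' values was not tested.

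**Figure D5:**
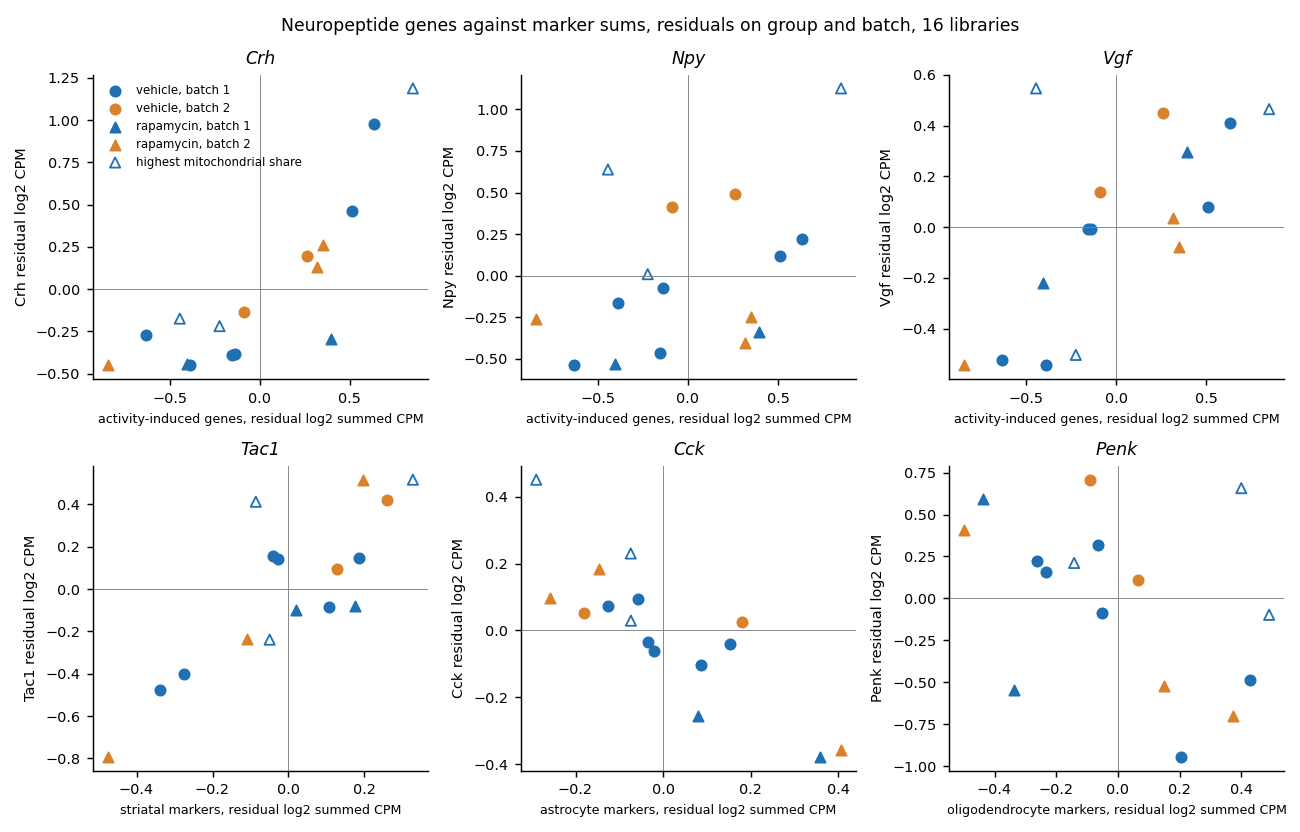
Residual log2 CPM of Crh, Npy, Vgf, Tac1, Cck and Penk (vertical axes) against residual log2 summed CPM of a marker list (horizontal axes), 1 point per library, after group and batch means were removed, with circles for vehicle, triangles for rapamycin, colour for batch and open triangles for the 3 libraries of high mitochondrial share. Crh rises with the activity-induced sum (r = 0.83), Tac1 with striatal markers (r = 0.82), and Cck falls with astrocyte markers (r = -0.84), while 1 open triangle has the highest Vgf residual at a low activity-induced sum.

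The genes whose residual pattern was most like each member were named from 14689 others with a mean of at least 1 CPM, by Pearson's r over 16 libraries. For Sst they were Dll3 (0.94), Ppdpf (0.92) and Ppm1m (0.91), and for Npy they were Sertad1 (0.95), Sugp1 (0.95) and Map2k3 (0.92). For Cck they were Hagh (0.94), Rpl36al (0.94) and Tagln3 (0.94), and 386 genes exceeded an r of 0.8 with Cck, the most of any member. For Vip they were Fbxo33, Smn1 and Ing2 (0.92 to 0.94). Tac1 was closest to Lrrc3b (0.95), Abi3bp (0.94) and Slc17a7 (0.92), which encodes the vesicular glutamate transporter of cortical pyramidal cells. Crh was closest to Lsg1, Apold1 and Id1 (0.90 to 0.92) and Vgf to Dnajb5, Dok3 and Grasp (0.89 to 0.93). Cort was closest to Rfc5, Exosc3 and Ercc1 (0.86 to 0.89), and r with Rfc5 was 0.24 without the 3 libraries. Penk was closest to Myh7 (0.90), Endou (0.86) and 2600014E21Rik (0.86). Pdyn was closest to Tnnc1 (0.89), Rtn4rl1 (0.86) and Syt6 (0.86). Of these, Myh7 and Tnnc1 are best known from striated muscle. Penk had 13 genes above an r of 0.8, the fewest.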

How the data were processed

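Counts per gene were deposited by the authors as whole numbers of read pairs for 16 cortex libraries. Per the labels and the study's methods, the authors prepared oligo(dT)-selected RNA, sequenced paired ends, aligned with HISAT2 2.2.1 to GRCm38 and counted without strand with featureCounts 2.0.3, so reads of a gene and of an antisense partner cannot be told apart. The processing notes also name FastQC 0.11.9, Trimmomatic 0.39 and Trim Galore. The group tables and the whole table held the same counts, with 0 differing cells of 761488.

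From these counts, edgeR 4.0.16 in R 4.3.3 was run with TMM factors, filterByExpr (minimum count 10), a term for each of the 4 groups and a batch term, and its quasi-likelihood test with Benjamini-Hochberg adjustment over the 16553 genes tested, which held 99.9% of read pairs. Each diet test within a sex, the interaction and the sex comparison in vehicle libraries were contrasts of that fit. The both-sexes diet test and the batch comparison came from a separate fit with terms for sex, diet and batch. The biological coefficient of variation in that separate fit was 0.186. A call is an adjusted p under 0.05. Log2 CPM used a prior count of 2. The 95% intervals of fold changes come from the fit of each test. Correlations used residuals after group and batch means, with permutation tests in NumPy 2.4.6. The script was tested on simulated data before use.

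The members, marker lists and tests were chosen with earlier results of these data known. All members are named, as are list genes past the threshold (at most 8 per list, with 1 glutamatergic marker not reported here) and for each member the 3 genes of highest r. Cckbr, Npy1r, Vipr1, Crhr1, Pcsk2 and Pam, which did not pass, and the genes too low to test were named after their values were seen. Alternatives were DESeq2 1.42.0, its size factors in edgeR, no filter, no batch term, a replicate block, batch 1 alone, 2 library covariates, each library left out, and, added after seeing the data, the 3 libraries of highest mitochondrial share left out. Columns of per-sample values that belong to no sample here numbered 0.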

Additional observations from a re-analysis of the deposited data

Results flagged for a closer look

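Each member in each group of 4 libraries was tested for 1 library far from the other 3 by Dixon's ratio, 40 groups in all at its 95% critical value, and 6 were past it. Chance alone passes about 1 in 20 groups. Male rapamycin 2 accounted for 4 of them, with Npy at 115 CPM, Cck at 495 CPM, Crh at 16.5 CPM and Cort at 16.2 CPM. The other groups were both for Crh, at 9.84 CPM in female vehicle 2 and 14.8 CPM in male vehicle 2. Summed activity-induced genes were 2878 CPM in male rapamycin 2, 2142 CPM in male vehicle 2 and 1767 CPM in female vehicle 2, each the highest of its group, and male rapamycin 2 is also 1 of the 3 libraries of high mitochondrial share. The part of either measure in these values was not tested.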

How the results depend on the processing

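The diet results for these genes depended on 3 libraries. With the 3 libraries of highest mitochondrial share left out, an alternative chosen after seeing the data, 1 gene and 0 members passed for both sexes, 2 members passed between batches and 2 member pairs correlated. Estimates that changed sign there were Npy (-0.17), Pdyn (-0.18) and Vgf (-0.11) for both sexes, Tac1 (-0.049) and Crh (0.19) in females, Npy (-0.38), Crh (-0.58) and Cort (-0.16) in males, and Npy (0.11) and Vgf (0.12) between batches. With the mitochondrial share as a covariate 0 genes and 0 members passed for both sexes, 1 gene in females, 1 between vehicle sexes, and 1703 genes and 0 members between batches. Diet estimates that changed sign were Npy (-0.11), Vip (-0.029) and Pdyn (-0.12) for both sexes, Vip (-0.13) and Tac1 (-0.011) in females, and Npy (-0.46), Crh (-0.23) and Cort (-0.012) in males. With the exon length slope as a covariate 0 genes and 0 members passed for both sexes, 1 gene in females, 1 between vehicle sexes, and 2083 genes and 0 members between batches. Diet estimates that changed sign were Sst (-0.039), Npy (-0.40), Vip (-0.14), Cck (-0.013), Pdyn (-0.36), Cort (-0.099) and Vgf (-0.075) for both sexes. In females they were Npy (-0.12), Vip (-0.40), Cck (-0.063), Tac1 (-0.28), Pdyn (-0.087) and Cort (-0.15), and in males Sst (-0.097), Npy (-0.56), Vip (-0.0096), Crh (-0.47) and Cort (-0.069).

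DESeq2 called 2 members for both sexes, 2 members and 1503 genes in females, 27 genes in males and 9 between vehicle sexes. Without the filter 3 members passed for both sexes, 3 members and 1678 genes in females, 1 member and 526 genes in males, 87 genes for the interaction, 1 member and 144 genes between vehicle sexes, and 8 members between batches. Without the batch term 142 genes and 0 members passed for both sexes, 1 gene in females and 1 between vehicle sexes, and Vip in females was -0.047. In batch 1 alone 1240 genes passed for both sexes, 1290 in females and 6 between vehicle sexes, 7 member pairs correlated, and Tac1 for both sexes (0.13), Vip in females (-0.079) and Pdyn (0.10) and Vgf (0.10) in males changed sign. With the replicate block 1298 genes passed for both sexes, 1 in males and 0 between vehicle sexes, and Pdyn for both sexes (-0.0053), Vip in females (-0.099) and Crh in males (-0.015) changed sign. Pairing by replicate number required a correlation of deviations over 0.1 in every same-numbered pair, and 18 of 21 pairs met this, with a range of -0.16 to 0.67. The numbers were therefore not taken to pair the libraries. Every same-numbered pair shared a batch, and batch was not removed from the deviations. These correlations therefore cannot tell pairing from a shared batch. The cause of these changes was not tested.

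Leaving out each library in turn gave 719 (without female rapamycin 1) to 3352 (without female rapamycin 4) genes and 0 to 2 members for both sexes, with the same libraries at the ends. It gave 1 to 2104 genes and 0 to 2 members in females, both highest without female rapamycin 4, 0 to 1 genes in males, 0 to 6 genes between vehicle sexes and 2 to 5 members between batches. Cck passed in 15 of 16 such fits, at 0.37 to 0.52. For both sexes Crh ranged from -0.32 to 0.19, Tac1 from -0.15 to 0.091 and Vgf from -0.043 to 0.19. In females Crh ranged from -0.15 to 0.13, Tac1 from -0.050 to 0.38, Vgf from -0.00017 to 0.55 and Vip from -0.039 to 0.26. In males Crh ranged from -0.60 to 0.49, Cort from -0.16 to 0.51, Npy from -0.36 to 0.38, Pdyn from -0.39 to 0.077 and Vgf from -0.26 to 0.11. Between batches Tac1 passed in 7 of 16 fits, Vip in 12, and Cck and Sst in 16.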
